A study of Mus musculus with 6 samples.

Results

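The 35 genes described here encode the machinery of mitosis and of the spindle checkpoint. They were chosen by symbol, and all 35 were found among the 53700 gene rows of a table of RNA sequencing counts from bulk mouse colon tumours. The 3 APC-KI tumours came from mice in which doxycycline represses the endogenous transcription factor Tcf7l2 throughout the body. These mice had been on doxycycline for 6 weeks and are labelled as recovered from cachexia, the wasting syndrome of advanced cancer. The 3 APC-WT tumours came from cachectic mice that kept their endogenous Tcf7l2 and had been on doxycycline for 10 days. Both groups received doxycycline at 100 mg/kg in the food, and all tumours were pulled off the muscle beneath them. Genotype, time on doxycycline and cachexia state therefore cannot be told apart. The age and sex of the mice, the construct that carries the repression and the number of tumours per mouse are not given in the sources used here.

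A dividing cell makes most of these messengers late in its cycle. The cyclin-dependent kinase Cdk1, switched on by A-type and B-type cyclins, starts mitosis together with the Polo and Aurora kinases. Kinetochores then tie chromosomes to spindle microtubules, and the spindle checkpoint holds back the anaphase-promoting complex, a ubiquitin ligase, until each chromosome is attached. In the intestine such divisions occur in the crypt and in adenomas, and the messengers are used as a measure of how many cells of a tissue are cycling. In bulk tissue, fewer cycling cells and less RNA per cycling cell cannot be told apart.

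Library totals lay between 51777342 and 63921108 counts, and 19127 genes passed the filter on low counts. All 35 mitosis genes passed it. Tcf7l2, the gene repressed by design, stood at 4.48, 6.91 and 5.34 CPM (counts scaled to library size with TMM factors) in APC-KI tumours and at 44.1, 43.8 and 35.6 CPM in APC-WT tumours, which follows the labels. APC-WT replicates 1 and 2 held 19164 and 16055 counts of the Y-linked genes Ddx3y, Eif2s3y, Kdm5d and Uty, and the other 4 libraries held 0. Such counts mark male tissue, so sex may differ within APC-WT tumours and cannot be fully told apart from group. Of the genes tested, 3847 had an adjusted p under 0.05 in the edgeR quasi-likelihood test (Benjamini-Hochberg over all genes), or 20.1%, with 12.5% of the genes tested higher and 7.63% lower in APC-KI tumours. The split of 2388 higher and 1459 lower turned to 1978 and 2844 with library totals in place of TMM factors, and to 1763 and 4041 with scaling to pan-epithelial markers. Calls numbered 178 higher and 152 lower over the 4 libraries with no Y-linked counts, which keep 1 APC-WT library, and 220 higher and 195 lower with those counts as a covariate.

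Of the 35 mitosis genes 34 did not pass the test between the groups. The exception was Bora, which encodes the activator of the Polo and Aurora A kinases at mitotic entry and was lower in APC-KI tumours. Of all genes tested 20.1% passed, with 12.5% of the genes tested higher and 7.63% lower. None of the 35 was higher in the edgeR test, at an unadjusted p under 0.05, in DESeq2 or in limma-voom. The median log2 change, APC-KI over APC-WT, was −0.06 over the 35 genes and −0.02 over all genes tested. The fitted log2 changes lay between −0.32 and 0.27, with 24 genes below 0 and 11 above 0. Below 0 also lay 51.5% of all genes tested. With library totals 32 mitosis genes lay below 0 and 3 passed, and with pan-epithelial scaling 33 lay below 0 and 4 passed (Bora, Mad2l1, Dlgap5 and Top2a), all lower. Under these 2 scalings the median of all genes tested moved to −0.13 and −0.22, and 25.2% and 30.3% of them passed.

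The standard error of the log2 change had a median of 0.13 over the mitosis genes and of 0.19 over all genes tested. With TMM factors, the 95% interval of the change lay within 2-fold in either direction for all 35 genes, and within 1.5-fold for 34. The exception was Pttg1, the securin that holds the protease separase inactive, with an interval of −0.11 to 0.64 on the log2 scale. Over the 35 genes the lowest bound was −0.57 and the highest 0.64. These intervals were not adjusted for the number of genes, and were not computed under the other settings, some of which moved the changes. With pan-epithelial scaling the median change of the 35 genes was −0.26, and that of Nuf2 was −0.42 ± 0.14 (SE). How many intervals stay within 1.5-fold there was not counted, so the count of 34 is given for TMM factors alone. At an unadjusted p under 0.05 in the edgeR test 3 of the 35 passed, where 37.8% of all genes tested did. The same 3, Bora, Mad2l1 and Dlgap5, were the mitosis genes whose APC-KI values all lay below their APC-WT values, against 21.5% of all genes tested. For none of the 35 did all APC-KI values lie above the APC-WT values, where 23% of all genes tested did.

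**Figure D1:**
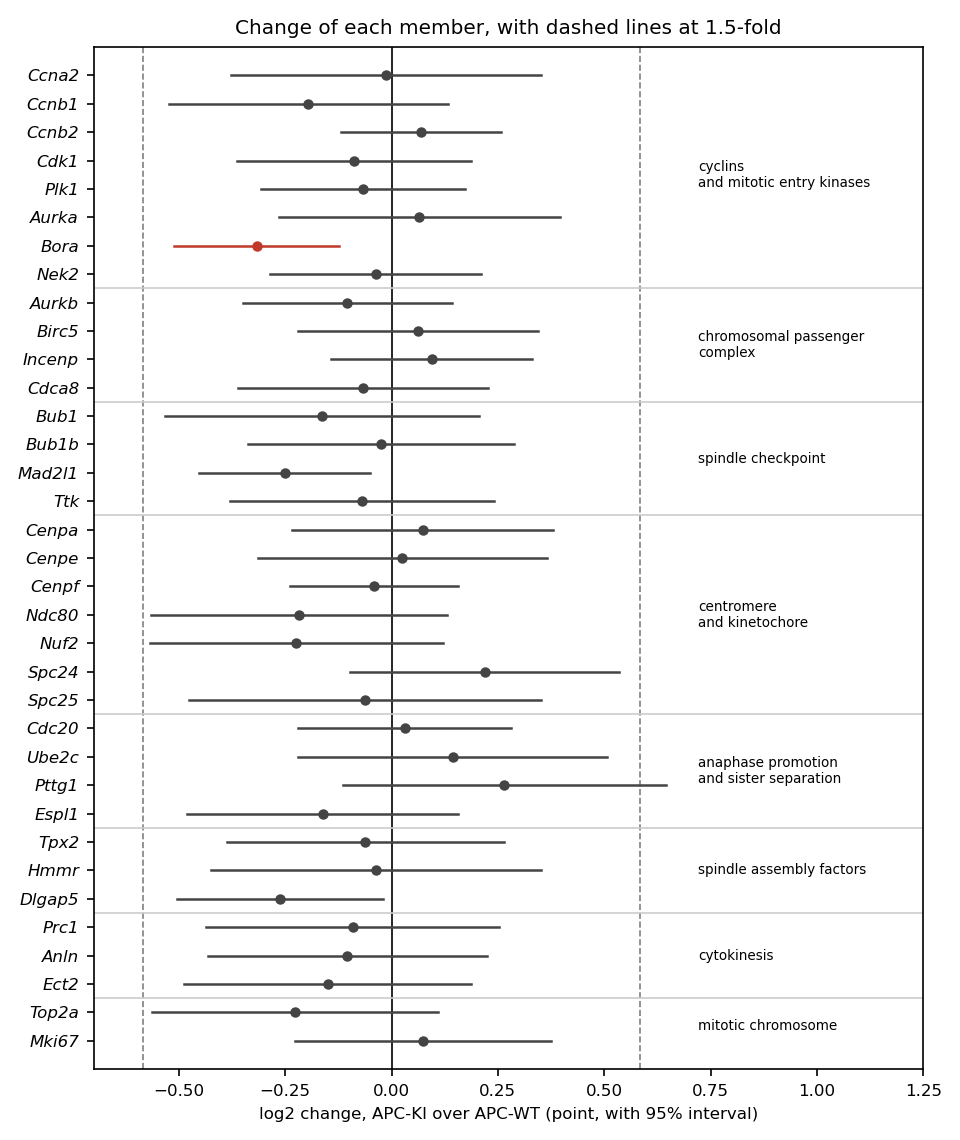
Log2 change of each of the 35 mitosis genes, APC-KI over APC-WT (x axis), as a point with its 95% interval, grouped by role, with dashed lines at 1.5-fold. Bora, in red, is the gene past the adjusted threshold, and all intervals but that of Pttg1 lie between the dashed lines.

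The mitosis genes moved together from tumour to tumour, most widely among the APC-WT tumours. Summed over the 35 genes, the level was 2646, 2613 and 2389 CPM in APC-KI replicates 1 to 3 and 2225, 2743 and 2989 CPM in APC-WT replicates 1 to 3. APC-WT replicate 1 had the lowest and APC-WT replicate 3 the highest sum of the 6, so the APC-KI sums lay inside the APC-WT range. Gene by gene, APC-WT replicate 3 held the highest value of the 6 libraries for 25 genes and APC-WT replicate 1 the lowest for 25 genes. APC-WT replicate 3 was above APC-WT replicate 1 for 34 of the 35, with a median ratio of 1.34 and a highest ratio of 1.58. The ratio of the highest to the lowest library had a median of 1.13 within APC-KI and of 1.34 within APC-WT tumours, and was larger in APC-WT for 31 genes. For 22 genes all 3 APC-KI values lay inside the APC-WT range.

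**Figure D2:**
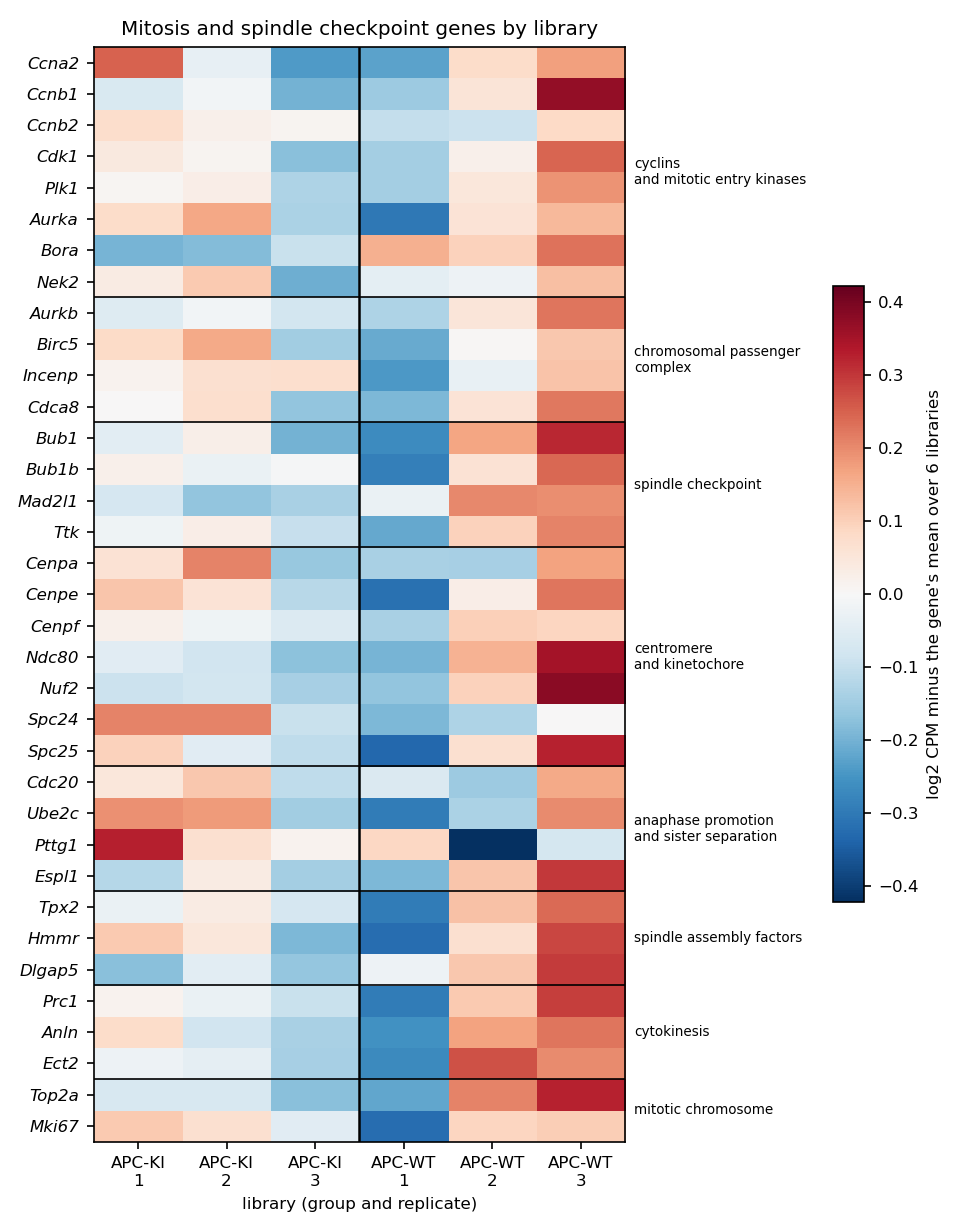
Log2 CPM of each mitosis gene in each library, minus the gene's mean over the 6 libraries (colour), with APC-KI libraries left of the vertical line and APC-WT libraries right of it, and genes grouped by role. The column of APC-WT replicate 1 is low and that of APC-WT replicate 3 high for most genes, and APC-KI replicate 3 is the lowest of its group for 30.

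The median spread of log2 CPM between replicates was 0.10 (SD, n = 3) for the mitosis genes in APC-KI tumours and 0.23 (SD, n = 3) in APC-WT tumours. Over all genes tested it was 0.17 in APC-KI and 0.20 in APC-WT tumours. After the group means were removed, 560 of the 595 pairs of mitosis genes correlated above 0 over the 6 libraries, with a median r of 0.842. The genes of a pair share library, scaling and any difference in cell makeup. Neither the share of such pairs nor the counts by library above were computed over all genes. Whether moving together is particular to the mitosis genes was thus not tested.

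The sign of the median depended on which APC-WT libraries were kept. Without APC-WT replicate 3 the median log2 change was 0.03, with 13 genes below 0, and without APC-WT replicate 1 it was −0.18, with 28 below 0. Over the 4 libraries with no Y-linked counts, which keep APC-WT replicate 3 alone of its group, it was −0.25, with 33 genes below 0. The median of all genes tested was 0.01 over the same 4 libraries. Bora did not pass without APC-WT replicate 3 (edgeR adjusted p = 0.0873), without APC-WT replicate 1 (0.0727) or over those 4 libraries (0.174). In that last fit the lone APC-WT library is assumed to vary as the APC-KI libraries do, and the log2 change of Bora was −0.39, so the lost call is no sign of a smaller difference.

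**Figure D3:**
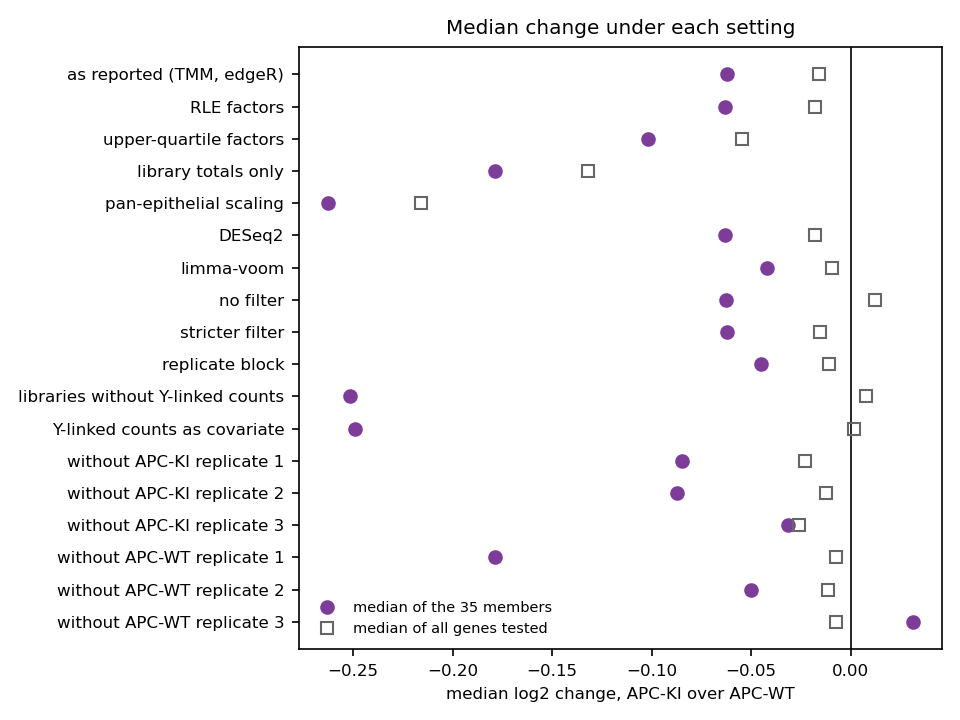
Median log2 change, APC-KI over APC-WT (x axis), of the 35 mitosis genes (filled circles) and of all genes tested (open squares) under each setting (rows). The circle lies at −0.06 in the analysis as reported, and right of 0 only without APC-WT replicate 3.

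Marker genes of other cell types differed between the same tumours, and their part in the levels of the mitosis genes was not tested. The counts below stand against 12.5% higher and 7.63% lower of all genes tested. Of 12 pan-epithelial markers 6 were higher and 1 lower in APC-KI tumours, and their summed level was 11160 to 12880 CPM in APC-KI and 9357 to 10380 CPM in APC-WT tumours. All 8 smooth muscle markers were higher (1000 to 1619 CPM in APC-KI, 188 to 471 CPM in APC-WT), as were 6 of 8 B and plasma cell markers (5786 to 14360 CPM in APC-KI, 842 to 1308 CPM in APC-WT). Of 8 mast cell markers 7 were lower and 1 higher (42.4 to 67.5 CPM in APC-KI, 146 to 860 CPM in APC-WT). Of the 6 markers of germinal centre B cells, which divide fast, 5 were tested and 0 passed in edgeR, at an unadjusted p under 0.05, in DESeq2 or in limma-voom, with sums of 61.0 to 67.2 CPM in APC-KI and 56.8 to 66.0 CPM in APC-WT tumours. Of the other lists, 4 of 8 intestinal stem cell markers were lower, and 3 of 8 goblet, 3 of 8 fibroblast, 3 of 7 endothelial, 4 of 7 T and NK cell and 2 of 8 macrophage markers were higher, as were 3 of 8 colonocyte markers, with 1 lower. The stem cell markers summed to 601 to 730 CPM in APC-KI and 1062 to 1394 CPM in APC-WT tumours, and the goblet markers to 4335 to 6537 CPM in APC-KI and 2191 to 3266 CPM in APC-WT tumours. With libraries scaled to the pan-epithelial markers in place of all genes, the median of all genes moved to −0.22 and that of the mitosis genes to −0.26. Such a change of scaling shifts all genes alike.

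The promoters of the mitosis genes share sequence features that the choice of genes did not use. Genes of this phase are known to be held off in resting cells through a cell cycle genes homology region (CHR), and to be driven by the factor NF-Y at CCAAT boxes. RefSeq promoter windows (GRCm38.p6, 250 bases before to 50 bases from the start on) were at hand for 28 of the 35 genes, in 30 windows. The CHR letters TTTGAA or TTTAAA and the NF-Y letters CCAAT were searched on both strands, and matches were allowed to overlap. TTTGAA or TTTAAA stood in 25 of the 30 windows (83.3%), against 27.6% of all 32851 windows. CCAAT stood in 24 of 30 (80%), against 37.4% of all windows, and both kinds together in 22 of 30 (73.3%), against 10.7%. In 31 windows of DNA replication genes the shares were 22.6% for the CHR letters, 58.1% for CCAAT and 16.1% for both kinds. A match shows letters only, and not that a factor binds there.

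**Figure D4:**
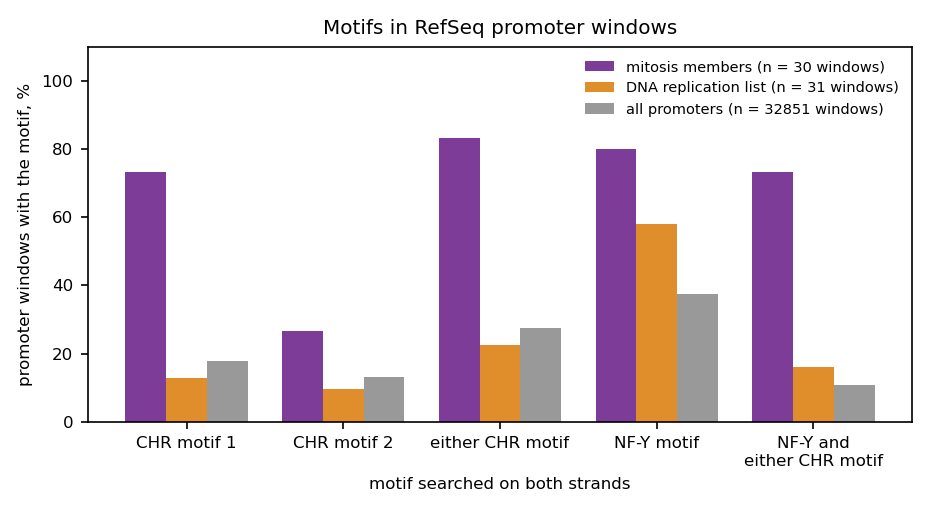
Share of RefSeq promoter windows that hold each motif (y axis, percent) for the mitosis genes, the DNA replication genes and all windows; CHR motifs 1 and 2 are the letters TTTGAA and TTTAAA, and the NF-Y motif is CCAAT. The bars of the mitosis genes reach 83.3% for either CHR motif and 80% for the NF-Y motif, against 27.6% and 37.4% over all windows.

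Printed below are the 4 genes with the smallest p among those whose window holds both kinds, and Mad2l1, whose APC-KI values all lay below its APC-WT values and whose window holds neither. Each runs 5′ to 3′ on the gene's strand from 120 bases before the start to 30 bases after it. Matches to the motifs on either strand are in capitals. GENCODE M21 places the start of Mad2l1 at 66535390, downstream of its RefSeq window, which ends at 66535270. Motifs between that window and the GENCODE start were not searched.
Top2a, chr11:99024160-99024309, minus strand: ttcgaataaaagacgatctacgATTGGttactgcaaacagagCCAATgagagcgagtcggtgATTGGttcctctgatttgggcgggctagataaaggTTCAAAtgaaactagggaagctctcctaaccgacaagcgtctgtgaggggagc
Ccnb1, chr13:100786457-100786606, minus strand: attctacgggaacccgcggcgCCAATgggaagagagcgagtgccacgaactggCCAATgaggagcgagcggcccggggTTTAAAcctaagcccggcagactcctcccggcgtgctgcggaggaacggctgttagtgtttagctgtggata
Espl1, chr15:102296173-102296322, plus strand: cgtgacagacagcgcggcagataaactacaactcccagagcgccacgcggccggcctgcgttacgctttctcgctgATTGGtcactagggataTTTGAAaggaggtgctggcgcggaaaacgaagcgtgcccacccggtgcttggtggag
Ect2, chr3:27153849-27153998, minus strand: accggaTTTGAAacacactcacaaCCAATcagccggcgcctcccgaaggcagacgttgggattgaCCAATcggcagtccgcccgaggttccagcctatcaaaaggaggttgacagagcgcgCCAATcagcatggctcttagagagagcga
Mad2l1, chr6:66535101-66535250, plus strand: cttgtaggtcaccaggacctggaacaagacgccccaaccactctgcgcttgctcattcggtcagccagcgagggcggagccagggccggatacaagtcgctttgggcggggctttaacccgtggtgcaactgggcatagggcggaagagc
In Ccnb1 and Espl1 the CCAAT boxes lie upstream of the CHR letters, in either orientation, and both lie within 120 bases of the start. The printed stretch of Top2a has the same order. Its full window holds further CCAAT boxes and CHR letters before that stretch, and those CHR letters lie upstream of some of its boxes. In Ect2 the printed CHR letters lie upstream of all its CCAAT boxes, and further CHR letters lie downstream of the printed stretch.

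Of the 8 genes for cyclins and kinases of mitotic entry, Bora was lower and the other 7 did not pass. Bora (ENSMUSG00000022070, chr14:99046222-99074540, plus strand, GRCm38) stood at 25.4, 25.6 and 27.3 CPM in APC-KI tumours and at 32.3, 31.1 and 34.1 CPM in APC-WT tumours. The groups did not overlap. Its log2 change was −0.32 ± 0.08 (SE, edgeR adjusted p = 0.039), or 0.803 times the APC-WT level. An exact two-sided permutation test over 3 against 3 libraries cannot go below 0.1. The call ended when any 1 library other than APC-KI replicate 3 was left out, with adjusted p between 0.0727 and 0.128, and log2 changes stayed between −0.36 and −0.28.

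The kinase that Bora serves to activate, Plk1, did not differ beyond the spread between replicates. Plk1, the Polo-like kinase of mitotic entry, stood at 70.0, 71.1 and 63.7 CPM in APC-KI and at 63.1, 72.1 and 79.5 CPM in APC-WT tumours (log2 change −0.07, 95% interval −0.31 to 0.17). Cdk1 stood at 79.7, 77.9 and 68.4 CPM in APC-KI and at 70.1, 78.6 and 91.6 CPM in APC-WT tumours (log2 change −0.09, 95% interval −0.36 to 0.19). The highest and the lowest values of Plk1 were both APC-WT libraries. Ccnb1, the B-type cyclin that partners Cdk1, stood at 57.8, 60.0 and 52.7 CPM in APC-KI and at 54.3, 62.7 and 78.1 CPM in APC-WT tumours, APC-WT replicate 3 being the one that stood apart (log2 change −0.20, 95% interval −0.52 to 0.13). Ccnb2, the other B-type cyclin among the members, had 48.6, 46.9 and 46.5 CPM in APC-KI and 43.1, 43.3 and 48.9 CPM in APC-WT tumours (log2 change 0.07, 95% interval −0.12 to 0.26). Both of these cyclins have an annotated pseudogene, so reads may be shared with it. The S and G2 phase cyclin Ccna2 had a log2 change of −0.01, the centrosomal kinase Nek2 of −0.04 and Aurka, which Bora also serves, of 0.07, and the 2 groups overlapped for each.

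All 4 subunits of the chromosomal passenger complex, which corrects faulty attachments and later guides cytokinesis, did not pass, with log2 changes between −0.10 and 0.09. Its kinase Aurkb stood at 38.8, 39.9 and 38.1 CPM in APC-KI and at 36.7, 41.7 and 47.0 CPM in APC-WT tumours. The APC-KI values lay inside the APC-WT range. Its scaffold Incenp stood at 100.2, 104 and 104 CPM in APC-KI and at 83.8, 97.2 and 108 CPM in APC-WT tumours. Cdca8, which encodes borealin, stood at 42.5, 44.6 and 37.9 CPM in APC-KI and at 37.3, 44.2 and 49.5 CPM in APC-WT tumours. For Incenp and for Cdca8 the APC-KI values likewise lay inside the APC-WT range. Birc5, which encodes survivin, had a log2 change of 0.06.

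The 4 spindle checkpoint genes had fitted changes below 0, and none passed. Mad2l1, which encodes the Mad2 protein that binds and holds the activator Cdc20, stood at 69.4, 65.0 and 66.3 CPM in APC-KI and at 71.5, 84.0 and 83.6 CPM in APC-WT tumours. The groups did not overlap, and APC-WT replicate 1 lay near the APC-KI values. Its log2 change was −0.25 ± 0.08 (SE, edgeR adjusted p = 0.0769), and it passed without APC-WT replicate 1 (adjusted p = 0.0368) and with DESeq2 (adjusted p = 0.0428). Bub1, a checkpoint kinase, stood at 37.2, 39.0 and 33.4 CPM in APC-KI and at 31.9, 43.1 and 47.8 CPM in APC-WT tumours. Bub1b, which encodes BubR1, a part of the complex that blocks Cdc20, stood at 76.6, 74.0 and 75.2 CPM in APC-KI and at 61.9, 78.7 and 89.3 CPM in APC-WT tumours. For both genes the APC-KI values lay inside the APC-WT range. Ttk, the kinase that starts the checkpoint, stood at 19.5, 20.2 and 18.5 CPM in APC-KI and at 17.0, 21.2 and 22.9 CPM in APC-WT tumours, again inside the APC-WT range.

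Of the 7 centromere and kinetochore genes none passed, and the 4 subunits of the Ndc80 complex, the main microtubule holder of the kinetochore, did not share 1 direction. Ndc80 stood at 23.4, 22.9 and 21.5 CPM in APC-KI and at 21.2, 26.9 and 30.9 CPM in APC-WT tumours (log2 change −0.22, 95% interval −0.56 to 0.13). Nuf2, its direct partner, stood at 20.7, 20.9 and 20.1 CPM in APC-KI and at 19.7, 23.6 and 28.7 CPM in APC-WT tumours (log2 change −0.22, 95% interval −0.57 to 0.12). APC-WT replicate 1 was the lowest library for both, and replicate 3 the highest. Spc24 stood at 15.8, 15.8 and 12.8 CPM in APC-KI and at 12.0, 12.5 and 13.7 CPM in APC-WT tumours (log2 change 0.22, 95% interval −0.10 to 0.53), and Spc25, with which it pairs, had a log2 change of −0.06. The centromeric histone Cenpa, the kinesin Cenpe and the large kinetochore protein Cenpf had log2 changes of 0.07, 0.03 and −0.04, with overlapping groups.

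The 4 genes of anaphase promotion and sister separation did not pass. Pttg1 had the highest fitted change of all 35 genes, 0.27 ± 0.16 (SE, edgeR adjusted p = 0.265). It stood at 24.4, 20.4 and 19.6 CPM in APC-KI and at 20.6, 14.5 and 18.5 CPM in APC-WT tumours, and unlike nearly all other members it was lowest in APC-WT replicate 2. It was also the 1 member with APC-WT replicate 3 below APC-WT replicate 1. Espl1, which encodes separase, the protease that cuts cohesin, stood at 35.1, 39.1 and 34.6 CPM in APC-KI and at 33.4, 41.4 and 46.9 CPM in APC-WT tumours (log2 change −0.16, 95% interval −0.48 to 0.16). Ube2c, the ubiquitin-conjugating enzyme of the anaphase-promoting complex, stood at 57.4, 56.8 and 45.4 CPM in APC-KI and at 41.0, 45.8 and 57.7 CPM in APC-WT tumours (log2 change 0.14, 95% interval −0.22 to 0.51). The groups overlapped for both genes, and Cdc20, the activator that the checkpoint holds back, had a log2 change of 0.03.

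Of the spindle assembly factors, Dlgap5, which stabilizes microtubules near chromosomes, stood at 33.8, 37.0 and 34.1 CPM in APC-KI and at 37.6, 41.3 and 46.8 CPM in APC-WT tumours. The groups did not overlap, but APC-KI replicate 2 and APC-WT replicate 1 lay side by side, and the log2 change of −0.26 ± 0.10 did not pass (SE, edgeR adjusted p = 0.11). Tpx2, the spindle activator of Aurora A, stood at 84.7, 88.4 and 82.2 CPM in APC-KI and at 70.3, 94.1 and 102 CPM in APC-WT tumours. Hmmr, a microtubule-binding partner of Tpx2, stood at 51.6, 49.4 and 41.9 CPM in APC-KI and at 38.2, 50.1 and 58.1 CPM in APC-WT tumours. For both of these the APC-KI values lay inside the APC-WT range.

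The 3 cytokinesis genes had log2 changes between −0.15 and −0.09, and none passed. Ect2, which activates RhoA at the division plane, stood at 72.7, 71.9 and 66.9 CPM in APC-KI and at 61.2, 88.8 and 84.7 CPM in APC-WT tumours. Anln, the scaffold anillin of the contractile ring, stood at 60.7, 54.4 and 52.3 CPM in APC-KI and at 48.1, 64.6 and 67.2 CPM in APC-WT tumours. Prc1, which bundles the microtubules of the central spindle, stood at 93.9, 91.3 and 87.2 CPM in APC-KI and at 75.8, 100.4 and 114 CPM in APC-WT tumours. All 3 had the pattern of the summed level, with the APC-KI values between APC-WT replicate 1 and the other 2 APC-WT libraries.

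The proliferation marker Mki67, which coats mitotic chromosomes, stood at 468, 454 and 419 CPM in APC-KI and at 347, 462 and 466 CPM in APC-WT tumours. APC-WT replicate 1 was the low one of the 6, and its change on the log2 scale was 0.07 ± 0.13 (SE, edgeR adjusted p = 0.698). Top2a, the topoisomerase that disentangles sister chromatids, stood at 365, 365 and 338 CPM in APC-KI and at 328, 442 and 479 CPM in APC-WT tumours. Its log2 change was −0.23 ± 0.14 (SE, edgeR adjusted p = 0.282), and it passed without APC-WT replicate 1 (adjusted p = 0.0406).

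Levels per length ranked the genes in nearly the same order in both groups. In CPM per kilobase of annotated exon (GENCODE M21), Mki67 averaged 44.5 in APC-KI and 42.2 in APC-WT tumours, and Top2a 39.5 in APC-KI and 46.2 in APC-WT tumours. The next 5, Cdc20, Plk1, Ccnb2, Ccna2 and Incenp, averaged between 23.8 and 32.1 CPM per kilobase in APC-KI and between 22.2 and 32.5 in APC-WT tumours. Within the Ndc80 complex the levels were 3.49 for Ndc80, 3.24 for Nuf2, 5.75 for Spc24 and 6.06 for Spc25 in APC-KI tumours, and 4.05, 3.79, 4.94 and 6.33 in the same gene order in APC-WT tumours. Nuf2 and Ndc80 were the lowest of the 35 in both groups by this measure. The length merges all annotated exons of a gene, 6493 bases for Ndc80 and 6341 for Nuf2, and may exceed that of the messenger. In CPM not divided by length, Spc24, Spc25 and Ttk averaged below Nuf2 and Ndc80 in both groups. Exons of 7 members (Ccna2, Cdc20, Cdca8, Nek2, Plk1, Prc1 and Ube2c) overlap those of a gene on the opposite strand in that annotation, and whether the counting used strand is not stated, so their levels are uncertain. Top2a is overlapped by Gm23451 on the same strand, which counting by strand would not separate.

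Further genes of mitosis were called lower at about the share of all genes in the edgeR test, and 0 were called higher. Unlike Bora, the genes named here and below were not followed singly with a library left out or with Y-linked counts as a covariate. Of 145 tested in 6 further lists, 9 were lower and 0 higher in APC-KI tumours in the edgeR test. Of all genes tested 7.63% were lower and 12.5% higher. At an unadjusted p under 0.05 in that test 25 of the 145 were lower and 2 higher. Of all genes tested 37.8% passed there in either direction. DESeq2 called 19 of the 145 lower and 2 higher, and 2388 of all 19127 genes tested lower and 3369 higher. The lists had a median log2 change of −0.12 and 112 genes below 0, where the median of all genes tested was −0.02 and 51.5% of them lay below 0. Among regulators of entry and exit 2 of 15 were lower, namely Wee1 and Pkmyt1, the kinases that hold Cdk1 inactive. Wee1 stood at 16.3, 15.7 and 19.2 CPM in APC-KI and at 25.9, 23.7 and 22.6 CPM in APC-WT tumours, without overlap (log2 change −0.50 ± 0.11, SE, edgeR adjusted p = 0.0292). Pkmyt1 stood at 23.3, 26.6 and 24.6 CPM in APC-KI and at 29.98, 31.2 and 35.2 CPM in APC-WT tumours (log2 change −0.37 ± 0.10, SE, edgeR adjusted p = 0.0443). For neither kinase did the groups overlap, whereas those of their substrate Cdk1 did, and the difference between the genes was not tested. Mastl, the Greatwall kinase that shields mitotic phosphorylation, did not pass (log2 change −0.40, edgeR adjusted p = 0.0598).

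Among 20 transcription factors of this phase and parts of the DREAM complex, which represses its genes in resting cells, 3 were lower. Of all genes tested 7.63% were lower. Mybl2, which activates mitotic genes with the MuvB core, stood at 23.4, 27.1 and 22.9 CPM in APC-KI and at 29.9, 36.1 and 40.1 CPM in APC-WT tumours (log2 change −0.53 ± 0.13, SE, edgeR adjusted p = 0.0361). E2f3 stood at 38.1, 31.9 and 40.6 CPM in APC-KI and at 50.3, 53.0 and 48.9 CPM in APC-WT tumours (log2 change −0.46, edgeR adjusted p = 0.0279). Nfyb, a subunit of the NF-Y factor whose CCAAT letters are marked in the promoters above, stood at 47.3, 44.2 and 47.9 CPM in APC-KI and at 56.4, 57.8 and 56.9 CPM in APC-WT tumours (log2 change −0.29, edgeR adjusted p = 0.0278). None of these 3 genes overlapped between the groups.

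Of 36 other kinetochore, centromere and checkpoint genes Cenpm, a centromere subunit, was lower, at 7.74, 9.43 and 8.49 CPM in APC-KI and 11.6, 14.6 and 16.6 CPM in APC-WT tumours (log2 change −0.74 ± 0.17, SE, edgeR adjusted p = 0.0295). The next by p were Cenpt and Cenpi, which did not pass at −0.30 and −0.40. Of 36 other spindle, centrosome and cytokinesis genes Haus4 and Haus2, subunits of the augmin complex that branches spindle microtubules, were lower by 0.41 and 0.34 on the log2 scale (edgeR adjusted p = 0.026 and 0.0386), and Haus6 did not pass at −0.28. Of 18 genes of the anaphase-promoting complex and its regulators Anapc15, a subunit that helps free the complex from the checkpoint, was lower by 0.35 on the log2 scale (edgeR adjusted p = 0.0331). The next by p were Mad2l1bp, which helps to disassemble the checkpoint complex and had a log2 change of 0.58 (edgeR adjusted p = 0.0538), and Cdc26 at −0.28. Of 20 cohesin and condensin genes 0 passed in the edgeR test, 0 in limma-voom and 2 (both lower) in DESeq2, and 3 had an unadjusted p under 0.05, Ncapd3, Ncapd2 and Pds5a, with log2 changes of −0.31, −0.21 and −0.19.

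Among genes of DNA replication, which act in the phase before, 7 of 34 tested were lower and 0 higher in APC-KI tumours in the edgeR test. Of all genes tested 7.63% were lower and 12.5% higher. The replication genes had a median log2 change of −0.29 and 31 below 0, where 51.5% of all genes tested lay below 0. Mcm7, of the replicative helicase, stood at 104, 115 and 113 CPM in APC-KI and at 151, 163 and 165 CPM in APC-WT tumours (log2 change −0.53 ± 0.07, SE, edgeR adjusted p = 0.00773). Pole, the leading-strand polymerase, and Lig1, the ligase of Okazaki fragments, fell by 0.51 and 0.36 on the log2 scale (edgeR adjusted p = 0.022 and 0.027). Of 16 genes for G1 cyclins, kinases and their inhibitors 4 were lower and 1 higher, against the same shares of all genes tested. The kinases Cdk6, Cdk4 and Cdk2 and the cyclin Ccnd1 had log2 changes of −0.73, −0.49, −0.30 and −0.50, and the inhibitor Cdkn2b of 0.68 (edgeR adjusted p = 0.00697, 0.018, 0.025, 0.0326 and 0.0147).

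Set against each other within a library, which removes the scaling, the mitosis genes stood higher relative to the replication genes in APC-KI tumours. The log2 ratio of the geometric mean of the 35 mitosis genes to that of the 34 replication genes was 0.65, 0.57 and 0.56 in APC-KI and 0.38, 0.34 and 0.41 in APC-WT tumours. The groups did not overlap in this ratio. The ratio to the pan-epithelial markers went the other way: it was −3.70, −3.63 and −3.68 on the log2 scale in APC-KI and −3.61, −3.38 and −3.27 in APC-WT tumours, also without overlap. Whether the mitosis genes stood higher or lower in APC-KI tumours within a library thus depended on the genes they were set against. The geometric mean of the mitosis genes alone was 54.5, 54.3 and 49.2 CPM in APC-KI and 47.0, 55.2 and 61.8 CPM in APC-WT tumours, and that of the replication genes 34.8, 36.7 and 33.3 CPM in APC-KI and 36.1, 43.6 and 46.3 CPM in APC-WT tumours. The lists were chosen with results of these data known, so both ratios are descriptions, and no test of them is given.

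**Figure D5:**
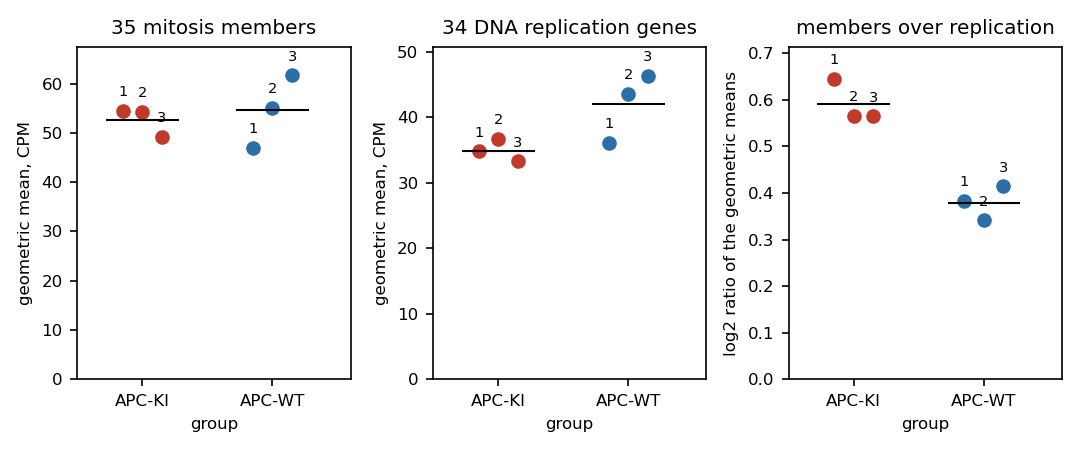
Geometric mean CPM of the 35 mitosis genes (left), of 34 DNA replication genes (middle) and the log2 ratio of the 2 means (right), by group, with 1 numbered point per library and a line at the group mean. The groups overlap in the left and middle panels, and in the right panel the APC-KI libraries lie between 0.56 and 0.65 and the APC-WT libraries between 0.34 and 0.41.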

How the data were processed

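RNA from 6 colon tumours was sequenced after TruSeq stranded mRNA library preparation, per the labels' protocols. The deposited values were raw counts per Ensembl gene, per the file headers and values. The builds GRCm38 and mm10 and the tools STAR, DESeq2 1.37.6, cutadapt 2.5 and Trim Galore 0.6.4 are named per the submitters' processing notes. What each was used for, how reads were counted and whether strand was used are not given in the sources used here. All columns carry the same run and lane tag.

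Symbols came from GENCODE M21 (52093 of 53700 identifiers), and for 67 symbols with several identifiers the one with the highest total was used. Identifiers were matched without their version, and only 35 carried the version of GENCODE M21. The counts may therefore rest on another release than the exon lengths and overlaps given here. After filterByExpr and TMM scaling, genes were tested with edgeR 4.0.16 in R 4.3.3 (robust quasi-likelihood fit, group as the sole term), with p adjusted by Benjamini-Hochberg over 19127 genes at a threshold of 0.05. The 95% intervals are the log2 change ± the t quantile times its SE. The fit was tested on simulated data. Libraries of a group differed beyond sampling noise (chi-square per gene 39.5 to 114), so each was 1 replicate. The labels do not tie each library to a mouse of its own, so p-values measure the spread between these samples, which may be technical in part.

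The members and lists were chosen with earlier results of these data known. Per-library values are given for members past the threshold, for up to 3 members per role with the smallest p and for Mki67, Top2a, Cdk1, Ccnb1, Aurkb, Plk1 and Bub1b; from other lists up to 3 genes with the smallest p and all past the threshold where these were 5 or fewer are named. Promoters were to be printed for members past the threshold; Bora had no window, so the 4 with the smallest p that hold both motif kinds were printed, and Mad2l1 was added after its values were seen. Of 146 genes in the 6 further mitosis lists 145 were analysed here. Alternatives were DESeq2 1.42.0, limma-voom 3.58.1, scaling by RLE, by upper quartile, by library totals or by pan-epithelial markers, no filter, a filter at CPM above 1 in 3 libraries, a replicate block, each library left out, the libraries without Y-linked counts, and those counts as a covariate. The values of 1 cell type marker are not reported here.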

Additional observations from a re-analysis of the deposited data

How the results depend on the processing

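The median log2 change of the 35 mitosis genes was below 0 under all alternatives except without APC-WT replicate 3. With each library left out in turn it ranged from −0.18 to 0.03, with 0 to 2 of the 35 lower, while 788 to 2542 of all genes were higher and 300 to 1595 lower; the cause was not tested. The leave-one-out fits with 1 group at 2 libraries rest on fewer samples. No alternative called any of the 35 higher. Library totals called 3 lower, with 2844 of all genes lower, and pan-epithelial scaling called 4 lower, with 4041 of all genes lower and a median of −0.26. DESeq2 called 2 lower, with 2388 of all genes lower. Without a filter 0 passed, with more genes in the adjustment. Among the 4 libraries that lack Y-linked counts, 0 of the 35 were lower, 178 of all genes were higher and 152 lower, and the median was −0.25. With Y-linked counts as a covariate these values were 0, 220, 195 and −0.25. The median of all genes tested was 0.0015 with that covariate, and −0.22 with pan-epithelial scaling. Same-numbered libraries did not deviate together (r = 0.035, −0.068 and −0.182), but so few values cannot show whether the numbers pair libraries. With a replicate block 0 of the 35 were lower, 1195 of all genes were higher and 465 lower, and Bora had an edgeR adjusted p of 0.096. Over all alternatives Bora kept its sign, between −0.51 and −0.28.

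Members near 0 changed sign. Log2 changes below 0 in place of above 0 were, by upper quartile, Cenpe −0.0142 and Cdc20 −0.0077; by library totals, Ccnb2 −0.0469, Aurka −0.052, Birc5 −0.0553, Incenp −0.0199, Cenpa −0.044, Cenpe −0.092, Cdc20 −0.0863 and Mki67 −0.0432; by pan-epithelial scaling, Ccnb2 −0.1309, Aurka −0.1367, Birc5 −0.1405, Incenp −0.102, Cenpa −0.1288, Cenpe −0.1765, Cdc20 −0.1707, Ube2c −0.0594 and Mki67 −0.1276; without the Y-linked libraries, Ccnb2 −0.0508, Aurka −0.0979, Birc5 −0.0796, Incenp −0.0715, Cenpa −0.1271, Cenpe −0.207, Cdc20 −0.1444, Ube2c −0.1193 and Mki67 −0.0619; and with the covariate, Ccnb2 −0.0482, Aurka −0.0951, Birc5 −0.0768, Incenp −0.0689, Cenpa −0.1243, Cenpe −0.2043, Cdc20 −0.1417, Ube2c −0.1166 and Mki67 −0.0592. With 1 library left out the ranges that cross 0 were Cenpe −0.1107 to 0.1536, Ccna2 −0.1498 to 0.0863, Birc5 −0.0254 to 0.1377, Cenpa −0.0135 to 0.182, Cdc20 −0.0389 to 0.1235, Nek2 −0.1004 to 0.0398, Hmmr −0.1868 to 0.1068, Aurka −0.0579 to 0.1515, Mki67 −0.0549 to 0.1437, Cdk1 −0.1785 to 0.0177, Plk1 −0.1527 to 0.0131, Cdca8 −0.1719 to 0.0311, Bub1b −0.1608 to 0.0977, Ttk −0.1859 to 0.0207, Spc25 −0.2219 to 0.1003, Tpx2 −0.2067 to 0.0479 and Prc1 −0.2418 to 0.0414. None of these passed the test either way.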
